A study of Mus musculus with 40 samples.

Results

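De novo lipogenesis builds fatty acids from citrate that mitochondria export to the cytosol. ATP citrate lyase (*Acly*) splits citrate to acetyl-CoA, the acetyl-CoA carboxylases (*Acaca*, *Acacb*) make malonyl-CoA, fatty acid synthase (*Fasn*) condenses these units to palmitate with NADPH, and *Elovl6* and *Scd1* lengthen and desaturate the product. In liver the pathway is known to be driven at the level of transcription by insulin through SREBP-1c, a product of *Srebf1*, and by carbohydrate through ChREBP, so it rises after feeding and falls in fasting. Malic enzyme (*Me1*) supplies NADPH, *Thrsp* (Spot 14) is a small protein that follows the lipogenic program, and *Pnpla3* encodes a lipid droplet protein that is a known SREBP-1c target.

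These 10 genes, *Srebf1*, *Fasn*, *Acaca*, *Acacb*, *Acly*, *Scd1*, *Elovl6*, *Me1*, *Thrsp*, and *Pnpla3*, were chosen by name as the genes of de novo lipogenesis with the factor upstream of them. All 10 of the 10 were found among the 55487 genes of the count table, and all 10 were among the 20297 genes that passed the filter on low counts. Their RNA was measured in whole liver of female mice, strain C57BL/6JBomTac, that lacked *Nampt* in hepatocytes (HNKO, floxed *Nampt* with the albumin-driven Cre) and of floxed littermates without Cre, called WT. *Nampt* encodes the enzyme that limits NAD+ salvage. All mice had come from a breeding chow and were sampled after 3, 6, 12, or 21 days on the same purified diet (PD). The sample labels enter these days as age, whereas the methods of the study describe days of PD feeding in adult mice. *Afp*, which is abundant in newborn liver, was at 3.99 to 24.3 CPM (counts scaled to a common library size) and *Igf2* at most at 0.0462 CPM in these libraries. *H19*, looked up with them, ranged more widely, from 0.15 to 78.6 CPM with a median of 0.83. For another diet experiment of the same study the methods give a short fast that began at a set hour of the light phase. Those of the time course refer back to the earlier text for sedation and plasma, and do not themselves give a fast or an hour. After 2 HNKO libraries of day 21 that the labels describe as failed in quality control were left out, 38 libraries remained. The WT groups held 5, 4, 5, and 5 livers at the 4 days in this order, and the HNKO groups 5, 5, 6, and 3. Each library is named below by the number in its label, and p-values measure the spread between these libraries.

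Total counts ranged from 16151037 to 64181492, with a median of 26466478.5. The targeted gene *Nampt* was at 5.84 to 7.28 log2 CPM in WT and at 4.92 to 6.36 in HNKO, so the genotypes overlapped over the whole series. Its log2 fold change over the mean of the 4 days was -0.83 (SE 0.122, adjusted p = 2.609e-06, edgeR's quasi-likelihood test). It was lower at days 3, 6, and 12, and at day 21 the log2 fold change of -0.69 had an adjusted p of 0.161. These calls at single days were lost without library 5 (day 3), without library 8, 10, or 29 (day 6), or without library 16 or 35 (day 12), with adjusted p of 0.0560 to 0.142, while that over the 4 days held in all 38 such fits. In a fit of only the groups compared, the calls at days 6 and 12 were lost (adjusted p = 0.0841 and 0.0773) and *Nampt* was called at day 21 (adjusted p = 0.0247), as it also was once the clock score described below entered the fit (adjusted p = 0.00618, edgeR for all). The summed CPM of 10 hepatocyte markers had group medians of 130000 to 144000 in WT and of 104000 to 117000 in HNKO, and over the mean of the 4 days 3 of 10 of these markers were called lower and 0 higher (adjusted p under 0.05, edgeR), where 17.3% of all tested genes were called lower and 19.2% higher. The summed CPM of 6 cholangiocyte markers had group medians of 40.9 to 44.3 in WT and of 164.0 to 289.0 in HNKO. In the same comparison, 6 of 6 cholangiocyte, 7 of 8 stellate and fibroblast, 5 of 7 macrophage, and 3 of 7 other leukocyte markers were called higher, and of 5 endothelial markers 0 were higher and 1 was lower. At days 3, 6, 12, and 21, 5, 5, 4, and 3 of 6 cholangiocyte markers and 3, 4, 3, and 3 of 8 stellate and fibroblast markers were called higher, so both lists held calls at every day. On the same days 0, 3, 1, and 1 of 7 macrophage markers were called higher and 0, 2, 0, and 0 of 10 hepatocyte markers lower, where 4.66%, 12.8%, 7.82%, and 3.12% of all genes were called in either direction. In bulk liver, fewer cells of a type and less RNA per cell cannot be told apart, and the part of this cell mixture in the results below was not tested. Of 7 adipocyte markers, *Adipoq* and *Plin1* had median counts of 1.0 and 0.5, although library 11 (HNKO day 12) held 200 and 211 counts of them. *Lipe* had a median of 356.0 and at least 199 counts in each library, and library 11 held 702 counts of *Cfd*. Of 7 pancreas and muscle markers, *Cela1* had a median of 351.0 counts. *Ckm*, *Acta1*, and *Myh4* had medians of 0.5, 1.0, and 0.0. Library 11 held 2166 counts of *Ckm* and 5763 of *Acta1*, and library 37 (HNKO day 21) held 560 of *Myh4*. The part of such tissue in the results below was not tested.

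RefSeq, on GRCm38.p6, gave 12 stretches of 250 bases before an annotated start for 9 of the 10 genes. *Scd1* was not matched. Of the 12, 6 are shown, all of which hold a match to a motif below, to set 3 of the 8 genes that moved together between mice (*Fasn*, *Acly*, and *Pnpla3*, as described below) beside *Srebf1* and *Thrsp*, which were outside that block. Each was searched on both strands for a sterol element (TCACNCCAC), an E-box (CACGTG), the CCAAT box of NF-Y, and the Sp1 box GGGCGG. Capitals mark every match, and the last base of each line lies next to the start.

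Srebf1, start 1 (chr11:60222582-60222831, minus strand): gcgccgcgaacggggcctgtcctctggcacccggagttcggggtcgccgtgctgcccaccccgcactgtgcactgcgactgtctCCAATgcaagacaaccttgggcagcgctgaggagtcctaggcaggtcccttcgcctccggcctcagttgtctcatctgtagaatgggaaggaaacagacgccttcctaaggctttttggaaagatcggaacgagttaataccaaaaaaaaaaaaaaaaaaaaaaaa

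Srebf1, start 3 (chr11:60210472-60210721, minus strand): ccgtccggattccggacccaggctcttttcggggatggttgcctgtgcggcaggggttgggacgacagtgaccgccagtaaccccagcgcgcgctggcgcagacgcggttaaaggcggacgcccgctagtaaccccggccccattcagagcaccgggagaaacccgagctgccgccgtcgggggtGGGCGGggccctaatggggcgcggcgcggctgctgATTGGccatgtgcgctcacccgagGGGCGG

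Fasn (chr11:120824548-120824797, minus strand): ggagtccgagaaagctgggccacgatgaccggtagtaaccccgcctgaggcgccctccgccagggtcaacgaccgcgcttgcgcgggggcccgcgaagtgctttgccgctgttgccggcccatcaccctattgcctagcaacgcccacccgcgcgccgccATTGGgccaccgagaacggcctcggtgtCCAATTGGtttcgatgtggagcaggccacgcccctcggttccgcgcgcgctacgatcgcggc

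Acly (chr11:100528001-100528250, minus strand): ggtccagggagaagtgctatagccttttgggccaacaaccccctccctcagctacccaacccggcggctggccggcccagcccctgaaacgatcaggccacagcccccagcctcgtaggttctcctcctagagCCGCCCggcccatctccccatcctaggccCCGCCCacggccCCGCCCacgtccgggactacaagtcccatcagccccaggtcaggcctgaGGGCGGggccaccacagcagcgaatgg

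Thrsp (chr7:97417551-97417800, minus strand): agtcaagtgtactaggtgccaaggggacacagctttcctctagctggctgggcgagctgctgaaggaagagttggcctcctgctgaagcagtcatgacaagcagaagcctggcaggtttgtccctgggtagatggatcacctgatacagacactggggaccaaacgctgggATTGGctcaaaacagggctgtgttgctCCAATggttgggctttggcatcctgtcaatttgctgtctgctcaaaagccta

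Pnpla3 (chr15:84167566-84167815, plus strand): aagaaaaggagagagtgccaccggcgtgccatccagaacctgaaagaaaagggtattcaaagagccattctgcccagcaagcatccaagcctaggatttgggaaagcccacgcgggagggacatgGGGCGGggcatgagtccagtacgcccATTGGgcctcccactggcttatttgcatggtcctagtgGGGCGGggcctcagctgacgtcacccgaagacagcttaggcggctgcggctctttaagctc

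The *Fasn* stretch held 3 CCAAT boxes, at -90 to -86, at -62 to -58, and at -59 to -55, of which the last 2 overlap and read from opposite strands. That of *Thrsp* held 2 CCAAT boxes, that of *Pnpla3* held 1 with 2 Sp1 boxes, and that of *Acly* held 4 Sp1 boxes and no CCAAT box. Of the 12 stretches, those of *Srebf1* (starts 1 and 3), *Fasn*, *Acacb*, *Me1* (start 2), *Thrsp*, and *Pnpla3* held a CCAAT box, which 33.8% of 32851 such stretches of the genome hold. An Sp1 box was present upstream of starts 2 and 3 of *Srebf1*, of *Acly*, of start 1 of *Me1*, and of *Pnpla3*, against 32.7% of all stretches. The sterol element, in 1.05% of all stretches, and the E-box, in 6.02%, had no match in the 12 stretches. At shares this low, the lack of a match in 12 stretches shows little, and variants of the letters were not searched. Those of *Acaca* and *Elovl6*, not shown, held none of the 4 motifs. That of *Acaca* (chr11:84195188-84195437) lies inside the annotated gene (chr11:84129672-84401651). So do those of *Acacb*, of start 2 of *Me1*, and of starts 2 and 3 of *Srebf1* in their genes. These matches describe letters only, and binding was not measured here.

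Compared per length of exon, the genes of the pathway lay far apart. *Scd1*, the delta-9 desaturase, had the highest median at 2770 FPKM (counts scaled by the depth of the library and the length of the exons), and it took 0.345% to 4.39% of all counts of a library, at rank 2 to 26 among all genes. *Fasn* followed at 192 FPKM, *Thrsp* at 133, *Acly* at 120, *Srebf1* at 73.3, *Elovl6* at 40, and *Me1* at 36.8. In WT alone *Me1* (50.2 FPKM) was above *Elovl6* (42.7 FPKM). The carboxylases *Acacb* and *Acaca* were at 20.8 and 18.1 FPKM, and *Pnpla3* was lowest at 7.45 FPKM. Neighbours in this order overlapped over libraries, since even *Srebf1*, the least variable gene, ranged from 26.8 to 162 FPKM. Together the 10 genes took from 0.657% of counts in library 21 (WT day 21) to 6.58% in library 34 (WT day 12).

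**Figure D1:**
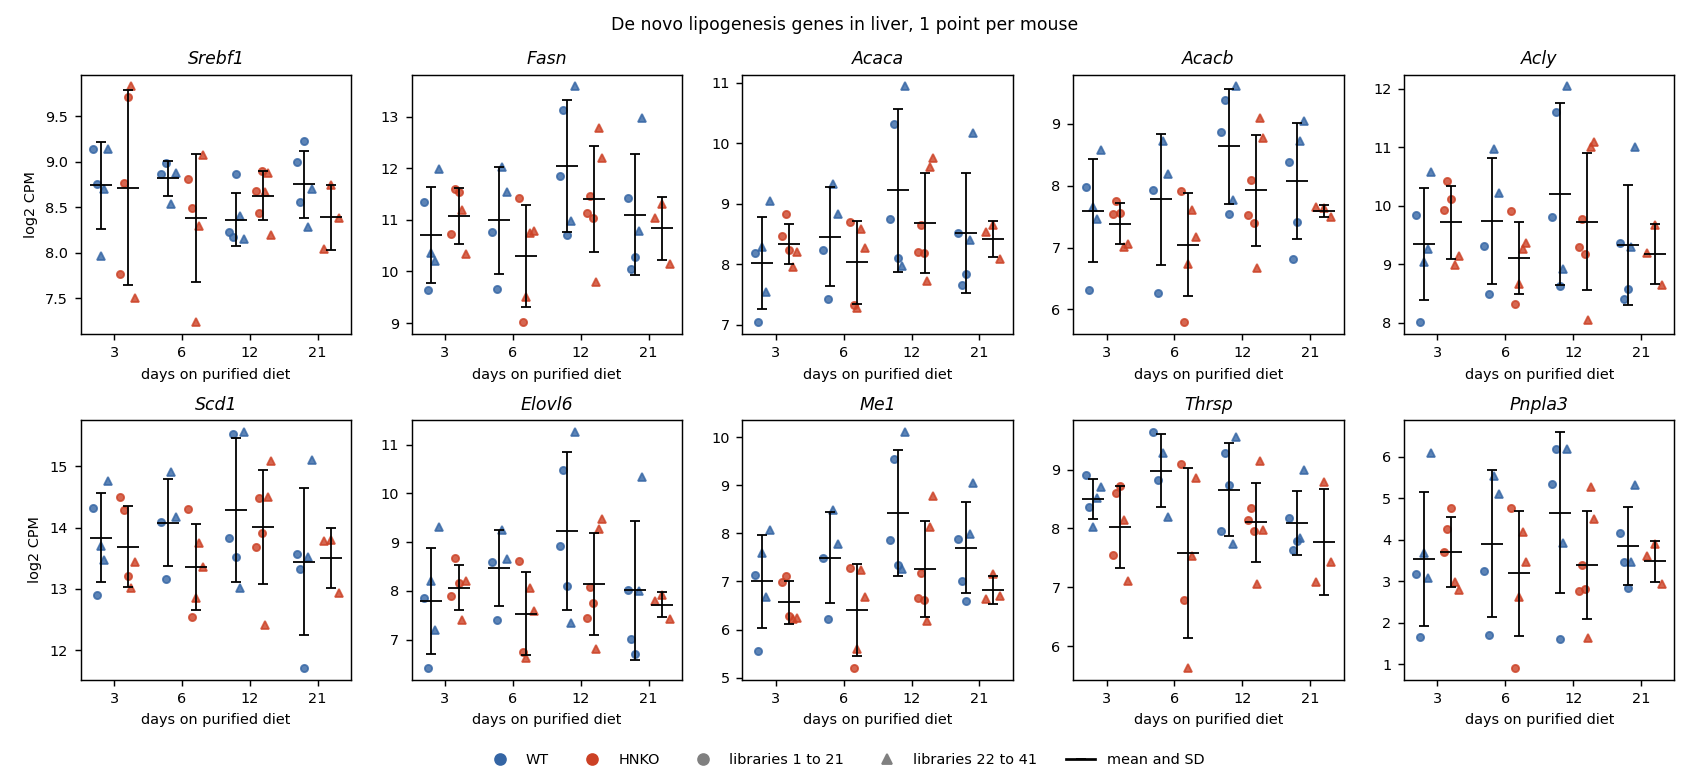
Log2 CPM of each gene (vertical axes) by days on PD (horizontal axes), 1 point per mouse, WT in blue and HNKO in red, with circles for libraries 1 to 21, triangles for libraries 22 to 41, and black bars for the mean and SD of each group. In every panel the HNKO and WT points of a day overlap, and for 8 of the genes the highest point is a WT liver of day 12, library 34 for 7 of them and library 15 for *Pnpla3*.

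What set these genes apart from most of the transcriptome was the spread between mice of one group. Their pooled SD within groups ran from 0.55 log2 CPM for *Srebf1* to 1.41 for *Pnpla3*, against a median of 0.2156 over the 12599 genes whose mean log2 CPM was 1 or more. *Srebf1* stood at percentile 94.9 of those genes, and the other 9 stood between percentiles 98.2 and 99.8. From the lowest to the highest library, *Pnpla3* spanned 39.1-fold, *Me1* 30-fold, *Elovl6* 28.7-fold, *Fasn* 23.7-fold, and *Srebf1* 6.04-fold. Library 34 (WT day 12) was highest for *Fasn*, *Acaca*, *Acacb*, *Acly*, *Scd1*, *Elovl6*, and *Me1*. *Fasn*, *Acacb*, *Me1*, and *Pnpla3* were lowest in library 7 (HNKO day 6), *Acaca*, *Acly*, and *Elovl6* in library 5 (WT day 3), *Srebf1* and *Thrsp* in library 29 (HNKO day 6), and *Scd1* in library 21 (WT day 21).

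To determine whether loss of *Nampt* in hepatocytes altered the genes of lipogenesis, HNKO was compared with WT at each day. A gene was called at an adjusted p under 0.05 over all 20297 tested genes (edgeR's quasi-likelihood test). At day 3, 0 of the 10 genes were called, where 4.66% of all tested genes were. At day 6 it was 0 of 10 against 12.8%, at day 12 it was 0 of 10 against 7.82%, and at day 21 it was 0 of 10 against 3.12%. DESeq2 also called 0 of 10 at each day. At an unadjusted p under 0.05 the counts were 0, 0, 2 (*Elovl6* and *Me1*), and 0 of 10 at days 3, 6, 12, and 21, where 20.9%, 26.6%, 24.5%, and 18% of all genes had such a p. For 0 of the 10 genes were the HNKO and WT libraries of a day without overlap, against 4.11%, 12.8%, 4.79%, and 13.9% of all genes at the 4 days. In exact permutation tests of the mean log2 CPM (two-sided), 0 of the 40 pairs of gene and day had a p under 0.05. The smallest exact permutation p was 0.127 for *Me1* at day 6, where the smallest that the design allows is 0.007937. The median fitted log2 fold change of the 10 genes was -0.08, -0.81, -0.76, and -0.51 at the 4 days, where that of all tested genes lay between -0.0137 and 0.0131. Since the genes vary together and each of these fold changes has a wide interval, these medians carry no test.

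Over the mean of the 4 days, which weights the days equally, 2 of the 10 genes were called, both lower in HNKO, where 36.4% of all genes were called, 17.3% lower and 19.2% higher. The 2 were *Me1* and *Acacb*. *Me1* makes NADPH from malate in the cytosol, and *Acacb* makes the malonyl-CoA at the mitochondrial membrane that is known to restrain fatty acid uptake into mitochondria.

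*Me1* (chr9:86581371-86695953, minus strand) was at 7.13, 5.54, 7.59, 6.67, and 8.07 log2 CPM in the 5 WT livers of day 3 and at 6.98, 7.11, 6.27, 6.22, and 6.25 in the 5 HNKO livers. At day 6 it was at 7.49, 6.22, 8.48, and 7.78 in WT and at 7.27, 5.20, 5.60, 7.25, and 6.69 in HNKO. All 5 HNKO livers of day 6 lay below the WT mean of 7.49, and 2 lay below all WT livers. At day 12 the WT livers were at 7.87, 9.55, 7.35, 7.26, and 10.11, and the 6 HNKO livers ran from 6.18 over a median of 6.92 to 8.77. Here 4 of 6 HNKO livers lay below all WT livers. At day 21 it was at 7.88, 7.01, 6.59, 7.99, and 9.05 in WT and at 6.63, 7.16, and 6.69 in HNKO, so that 1 WT liver (6.59) was below all 3 HNKO livers. The log2 fold changes were -0.61, -1.07, -1.35, and -1.12 at the 4 days. Leaving out 1 WT liver brought them to -0.29 (library 26, day 3), -0.68 (library 27, day 6), -0.78 (library 34, day 12), and -0.63 (library 41, day 21), and without library 36 of HNKO that of day 12 was -1.78. With the label series as a covariate that of day 3 was -0.28, and with the clock score that of day 12 was -0.76. Over their mean *Me1* fell to 0.488 of WT (log2 fold change -1.04, SE 0.293, 95% interval -1.63 to -0.44, adjusted p = 0.0054, edgeR's quasi-likelihood test). It stayed called under each of 45 alternatives, with adjusted p between 0.0018 and 0.016. Of the 51-base stretches of its transcripts, 27.9% also occur in transcripts of other genes, mainly *Gm7049*, *Gm48795*, and *Gm7329*.

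*Acacb* (chr5:114146535-114250761, plus strand) was at 7.98, 6.31, 7.65, 7.47, and 8.58 log2 CPM in WT and at 7.55, 7.75, 7.57, 7.01, and 7.05 in HNKO at day 3. At day 6 it was at 7.93, 6.27, 8.73, and 8.20 in WT and at 7.92, 5.80, 6.74, 7.61, and 7.18 in HNKO. The HNKO values fell inside the WT range at day 3, and at day 6 only library 7 was below it. At day 12 the WT livers were at 8.87, 9.39, 7.55, 7.78, and 9.61, and the HNKO livers ran from 6.68 over a median of 7.81 to 9.09. At day 21 the values were 8.39, 6.81, 7.41, 8.72, and 9.05 in WT and 7.66, 7.65, and 7.49 in HNKO, again inside the WT range. The log2 fold change over the mean of the 4 days was -0.64 (SE 0.245, 95% interval -1.14 to -0.14, adjusted p = 0.0391, edgeR's quasi-likelihood test), or 0.642 of WT. This call was lost in 17 of the 38 fits that left out 1 library (1, 7, 11, 13, 15, 22, 23, 26, 27, 28, 29, 34, 37, 38, 39, 40, or 41), with adjusted p up to 0.0784 in edgeR's test.

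The other enzymes and the factor upstream did not pass the threshold over the mean of the 4 days. The fatty acid elongase *Elovl6* had a log2 fold change of -0.82 (adjusted p = 0.055, edgeR's quasi-likelihood test), and it was called in 13 of the 45 alternatives, with all 40 libraries, with the label series as covariate, and without library 5, 6, 10, 14, 16, 20, 21, 25, 33, 35, or 36. *Pnpla3* was at -0.86 (adjusted p = 0.101) and *Thrsp* at -0.54 (adjusted p = 0.0808), in the same fit. Over the 45 alternatives *Pnpla3* ranged from -0.98 to -0.36 and *Thrsp* from -0.70 to -0.45. *Fasn*, *Acly*, *Scd1*, and *Acaca* were at -0.48, -0.44, -0.40, and -0.37, with lower bounds of the 95% interval of -1.11 to -0.91 and upper bounds of 0.15 to 0.20. Over the 45 alternatives *Fasn* ranged from -0.56 to -0.26 and *Acly* from -0.52 to -0.18. *Scd1* ranged from -0.47 to -0.24 and *Acaca* from -0.44 to -0.20. For *Srebf1* the log2 fold change was -0.06, with a 95% interval of -0.39 to 0.28, or 0.761-fold to 1.22-fold. This is a mean of day effects of 0.21, -0.32, 0.26, and -0.37, so its interval does not bound the change at a single day. Intervals at single days were wider for each gene, up to -2.45 to 1.27 for *Pnpla3* at day 21, and differences inside them were not detectable with this spread between mice.

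**Figure D2:**
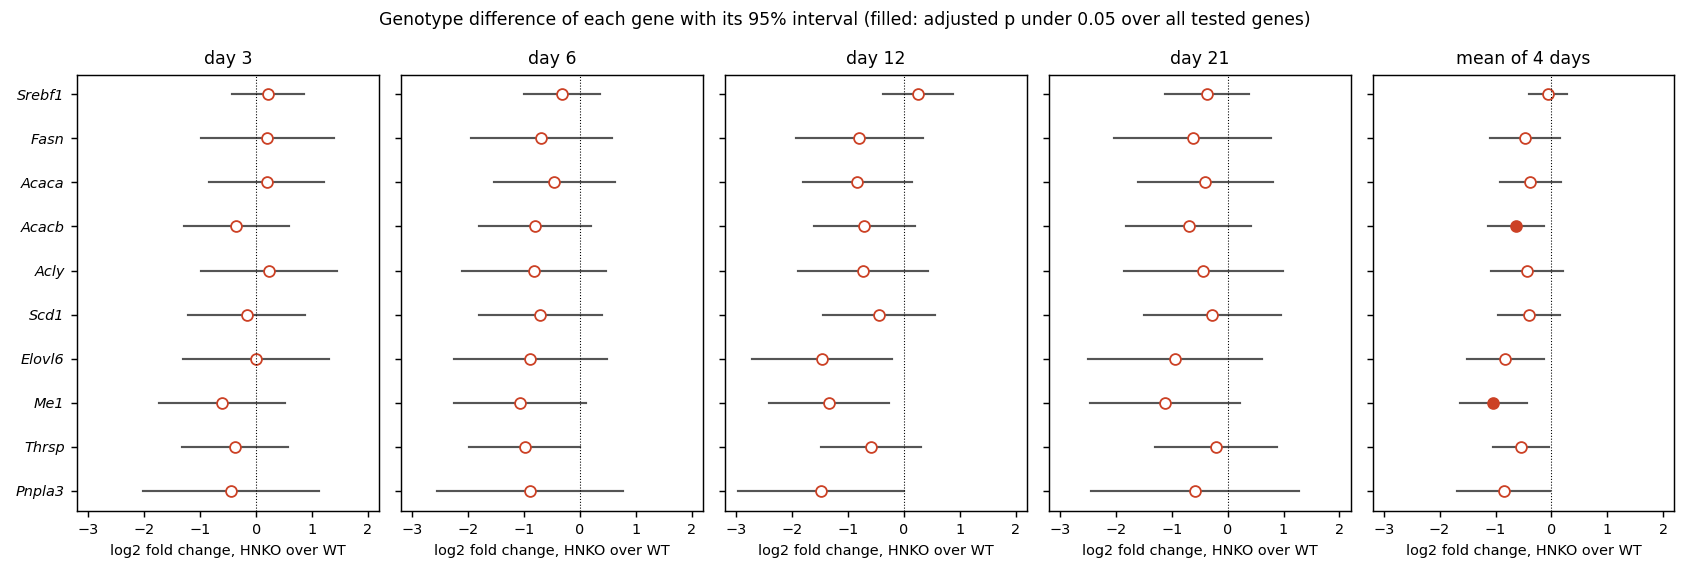
Log2 fold change of HNKO over WT (horizontal axes) for each gene (vertical axis) at each day and over the mean of the 4 days, with lines for the 95% interval and filled points for genes called at an adjusted p under 0.05. Filled points appear only in the last panel, for *Acacb* at -0.64 and *Me1* at -1.04, and the intervals of *Srebf1* are the narrowest.

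*Srebf1* (chr11:60199089-60222581, minus strand) encodes the membrane-bound precursor of SREBP-1, so its RNA is not a measure of the active factor. At day 3 it was at 9.14, 8.75, 7.97, 8.70, and 9.15 log2 CPM in WT and at 7.76, 8.77, 9.71, 9.83, and 7.51 in HNKO. The HNKO livers thus lay on both sides, 2 below and 2 above all WT livers. At day 6 it was at 8.86, 8.98, 8.54, and 8.88 in WT and at 8.81, 8.49, 7.24, 8.29, and 9.08 in HNKO. At day 12 the 5 WT livers were at 8.23, 8.17, 8.86, 8.40, and 8.15, and the HNKO livers ran from 8.20 over a median of 8.68 to 8.90. At day 21 it was at 8.99, 8.55, 9.22, 8.29, and 8.70 in WT and at 8.04, 8.75, and 8.38 in HNKO. The fitted fold changes compare mean counts and can differ from the difference of mean log2 CPM, which for *Srebf1* at day 3 was -0.02 against a fitted 0.21. For *Pnpla3* at day 3 this difference was 0.17 against a fitted -0.45, and for *Scd1* at day 21 it was 0.06 against -0.27. At day 21 it was nearer 0 than the fit for *Elovl6* (-0.30 against -0.94) and *Me1* (-0.88 against -1.12). For *Thrsp* at day 6 it was farther from 0 (-1.40 against -0.99).

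*Fasn* (chr11:120805846-120824547, minus strand) shows the pattern of the enzymes of the core pathway. In WT it was at 11.35, 9.64, 10.36, 10.21, and 11.98 log2 CPM at day 3, and in HNKO at 10.72, 11.61, 11.53, 11.19, and 10.34. All HNKO livers of day 3 lay within the WT range. At day 6 it was at 10.76, 9.65, 12.03, and 11.53 in WT and at 11.42, 9.02, 9.51, 10.75, and 10.79 in HNKO. At day 12 the WT livers were at 11.84, 13.13, 10.71, 10.97, and 13.59, and the HNKO livers ran from 9.80 over a median of 11.30 to 12.78. The 2 highest values belong to libraries 15 and 34, WT livers of day 12. At day 21 it was at 11.42, 10.04, 10.28, 10.79, and 12.98 in WT and at 11.04, 11.31, and 10.15 in HNKO.

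*Elovl6*, which lengthens palmitate to stearate, was at 8.93, 10.49, 8.10, 7.35, and 11.26 log2 CPM in WT at day 12, and ran from 6.80 over a median of 7.92 to 9.48 in HNKO. Its log2 fold change at day 12 was -1.46, with an unadjusted p of 0.0235 and an adjusted p of 0.134 in edgeR's quasi-likelihood test. It was -0.75 without library 34 and -0.81 with the clock score described below as a covariate. At day 3 its groups were alike in the fit (log2 fold change -0.00), while the mean log2 CPM was 0.27 higher in HNKO. *Thrsp* was at 9.64, 8.82, 9.28, and 8.19 in WT at day 6 and at 9.10, 6.78, 5.63, 7.54, and 8.86 in HNKO, and 3 of the 5 HNKO livers lay below all WT livers. *Pnpla3* was at 5.35, 6.20, 1.60, 3.92, and 6.19 in WT at day 12, the widest range of a group, and ran from 1.63 over a median of 3.11 to 5.26 in HNKO.

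The label numbers run through the days in 2 series, libraries 1 to 21 and libraries 22 to 41, and the labels do not say what these are. Within the series, the mean difference of HNKO from WT over the days was -0.53 log2 CPM for *Me1* in the first series and -1.38 in the second, and for *Acacb* it was -0.23 and -0.99. The first series has no HNKO library of day 21 that passed quality control, so it covers 3 days and the second 4. *Pnpla3* was at 0.27 and -1.37, *Acly* at 0.28 and -0.87, *Elovl6* at -0.21 and -1.05, and *Fasn* at 0.04 and -0.81. *Thrsp* was at -0.71 and -0.85, and its HNKO mean was below its WT mean in 7 of 7 pairs of groups of 1 day and series. *Srebf1* was at -0.07 and -0.06. The difference between the series was not tested. With the series as a covariate, *Me1* (-1.05), *Acacb* (-0.66), and *Elovl6* (-0.80, adjusted p = 0.0445) were called over the mean of the 4 days in edgeR's quasi-likelihood test.

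To determine whether the genotype difference changed with time, the interaction of genotype and day was tested. 0 of the 10 genes and 0 of all genes were called by edgeR's quasi-likelihood test, which is 0% of those tested, while 4.76% of all genes had an unadjusted p under 0.05 and DESeq2 called 16 genes. The 10 genes had adjusted p-values of 0.9998 in edgeR's test.

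Across days in WT on PD, 0 of the 10 genes were called for a day effect, against 5.84% of all genes (edgeR's quasi-likelihood test). At an unadjusted p under 0.05 were *Me1* (0.0274), *Acaca* (0.0283), and *Elovl6* (0.0410), where 21.2% of all genes had such a p. *Elovl6* was called when library 41 of WT day 21 was left out, with an adjusted p of 0.0403. Between pairs of days 0 of 10 were called in each case, against 0% from day 3 to 6 (5.24% at an unadjusted p under 0.05, and 5 genes by DESeq2), 2.24% from day 6 to 12, 0.00493% from day 12 to 21, and 4.95% from day 3 to 21. The log2 fold change from day 6 to 12 was 1.30 for *Elovl6*, 1.24 for *Fasn*, and 1.21 for *Me1*, and from day 12 to 21 it was -1.24, -0.95, and -0.95. Both pairs share the WT livers of day 12, among them libraries 15 and 34. Without library 34 the changes to day 12 were 0.60, 0.77, and 0.65, and those to day 21 were -0.54, -0.46, and -0.39. Without library 41 the latter were -2.37, -1.76, and -1.43. With the clock score described below as a covariate they were -0.14, 0.18, and 0.07, so the direction changed for *Fasn* and *Me1*, and the changes to day 12 were 0.66, 0.79, and 0.74. The mean score of WT was itself -0.91 at day 12 and 1.40 at day 21, so score and day cannot be fully told apart in that fit. *Srebf1* was at -0.44 and 0.40 in the same pairs. In HNKO the day effect was called for 0 of 10 genes, against 7.9% of all genes.

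The genes were next compared with each other over the 38 livers, as deviations from the mean of each genotype and day. *Fasn*, *Acaca*, *Acacb*, *Acly*, *Scd1*, *Elovl6*, *Me1*, and *Pnpla3* moved as 1 block, with Pearson's r of 0.77 to 0.98 over their 28 pairs and a median of 0.90. *Thrsp* was less close to these 8, at r = 0.47 to 0.68. *Srebf1* stood apart, with r of -0.19 to 0.54 to the other 9 and a median of -0.07. These values share libraries and scaling and are given as a description. They include a pair of paralogues, *Acaca* and *Acacb*, and the enzymes of successive steps, *Acly*, *Fasn*, and *Elovl6*.

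**Figure D3:**
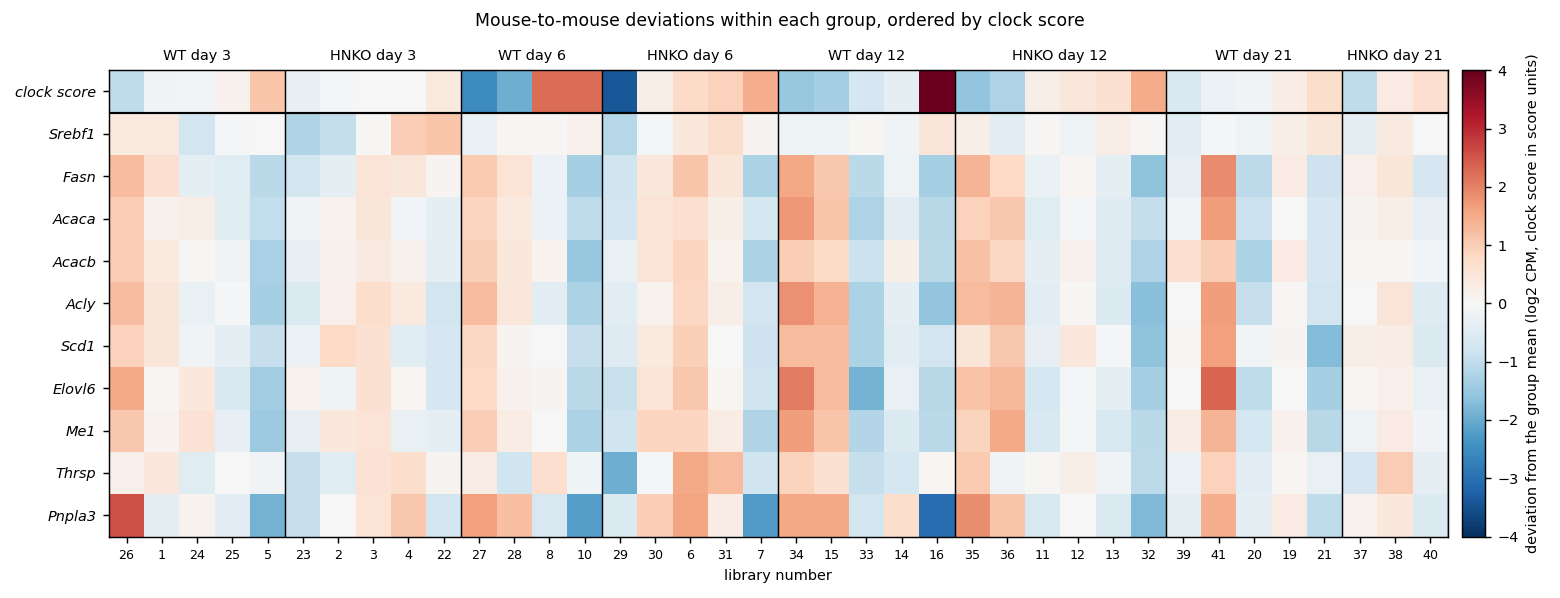
Deviation of each liver from its group mean (colour, in log2 CPM, and in score units for the top row) for the clock score and the 10 genes (vertical axis), with libraries in columns (horizontal axis, by number) grouped by genotype and day and ordered by clock score. The columns of 8 genes share their colours from *Fasn* to *Me1* and in *Pnpla3*, while the row of *Srebf1* does not follow them.

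The relation of *Srebf1* to each of the other 9 genes was tested by permutation within groups, with 100000 draws and adjustment over the 9 relations. To the 8 genes of the block, r was -0.19 to 0.16 and Spearman's rho -0.23 to 0.08, with adjusted permutation p-values of at least 0.69. To *Thrsp*, r was 0.54 (permutation p = 0.00222, adjusted 0.02) and rho 0.45 (adjusted permutation p = 0.124). Without libraries 29 and 23, which lie farthest from the median of *Srebf1*, r was 0.34 and no longer passed the test (adjusted permutation p = 0.155), so the call rests on them while the sign does not. Within the first label series, which holds neither, and within the second r was 0.43 and 0.62, with adjusted permutation p-values of 0.657 and 0.133.

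Since the methods of the time course do not themselves give the hour of sampling, a score of clock genes was computed for each liver as the mean z value of genes that peak with *Dbp* minus that of genes that peak with *Arntl*. For the 8 genes of the block r with this score was -0.66 to -0.42 and rho -0.61 to -0.49 (n = 38 livers, permutation p-values adjusted over the 10 genes of 0.00203 to 0.0219 for r). *Pnpla3* had the strongest relation at r = -0.66, *Fasn* was at -0.50, and *Acly* at -0.58. Livers with a high score thus had less RNA of the block. *Srebf1* had the opposite sign, r = 0.43 and rho = 0.51 (adjusted permutation p = 0.00203 and 0.0025), and *Thrsp* was at 0.17 (adjusted permutation p = 0.435). Without libraries 29 and 16, farthest from the median score, r was -0.73 to -0.56 for the block and 0.21 for *Srebf1* (adjusted permutation p = 0.036). Within the first label series r of the block was -0.81 to -0.55 and within the second -0.40 to -0.18, but 0 of 10 genes passed an adjusted permutation p of 0.05 in either series. Within the series the relation of the block kept its sign and did not pass the test.

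The score differed between days, with means of -0.73, 0.10, -0.91, and 1.40 in WT at days 3, 6, 12, and 21. In HNKO the means were -1.51, 0.25, 0.59, and 1.19. A comparison of days with the score as a covariate therefore cannot fully separate score and day. The score also varied within groups. In WT at day 6, libraries 8 and 10 had scores of 2.32 and 2.35, and libraries 27 and 28 had scores of -2.42 and -1.85. *Acly* was at 9.31 and 8.49 log2 CPM in the first pair and at 10.97 and 10.21 in the second. The first pair is of the first label series and the second of the second, so score and series cannot be told apart in these 4 livers. Library 29 (HNKO day 6) went against the relation, with the lowest score of all livers (-3.13) and a mean z value of -1.43 over the 9 genes other than *Srebf1*. With 34707720 total counts, it also held the most counts of *Spp1* (31227, median 2509.5), *Col1a1* (8105, median 449.0), and *Ptprc* (5064, median 1114.0). Library 35 held the most of *Krt19* and *Acta2*. The part of this cell mixture in the values of library 29 was not tested. Between genotypes the mean score differed by -0.78 at day 3 (exact permutation test, two-sided, p = 0.0476, HNKO lower) and had p-values of 0.937, 0.18, and 0.696 at days 6, 12, and 21 in the same exact test. With the score as a covariate, *Me1* (log2 fold change -0.85, adjusted p = 0.00696) and *Acacb* (-0.50, adjusted p = 0.0493) were called over the mean of the 4 days by edgeR's quasi-likelihood test. In the same fit, *Acaca* (1.45), *Acacb* (1.26), and *Me1* (1.57) were called higher in WT at day 21 than at day 3, while the calls over all 20297 genes rose from 1005 without the score to 2738 with it. What the score stands for in these livers was not tested.

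**Figure D4:**
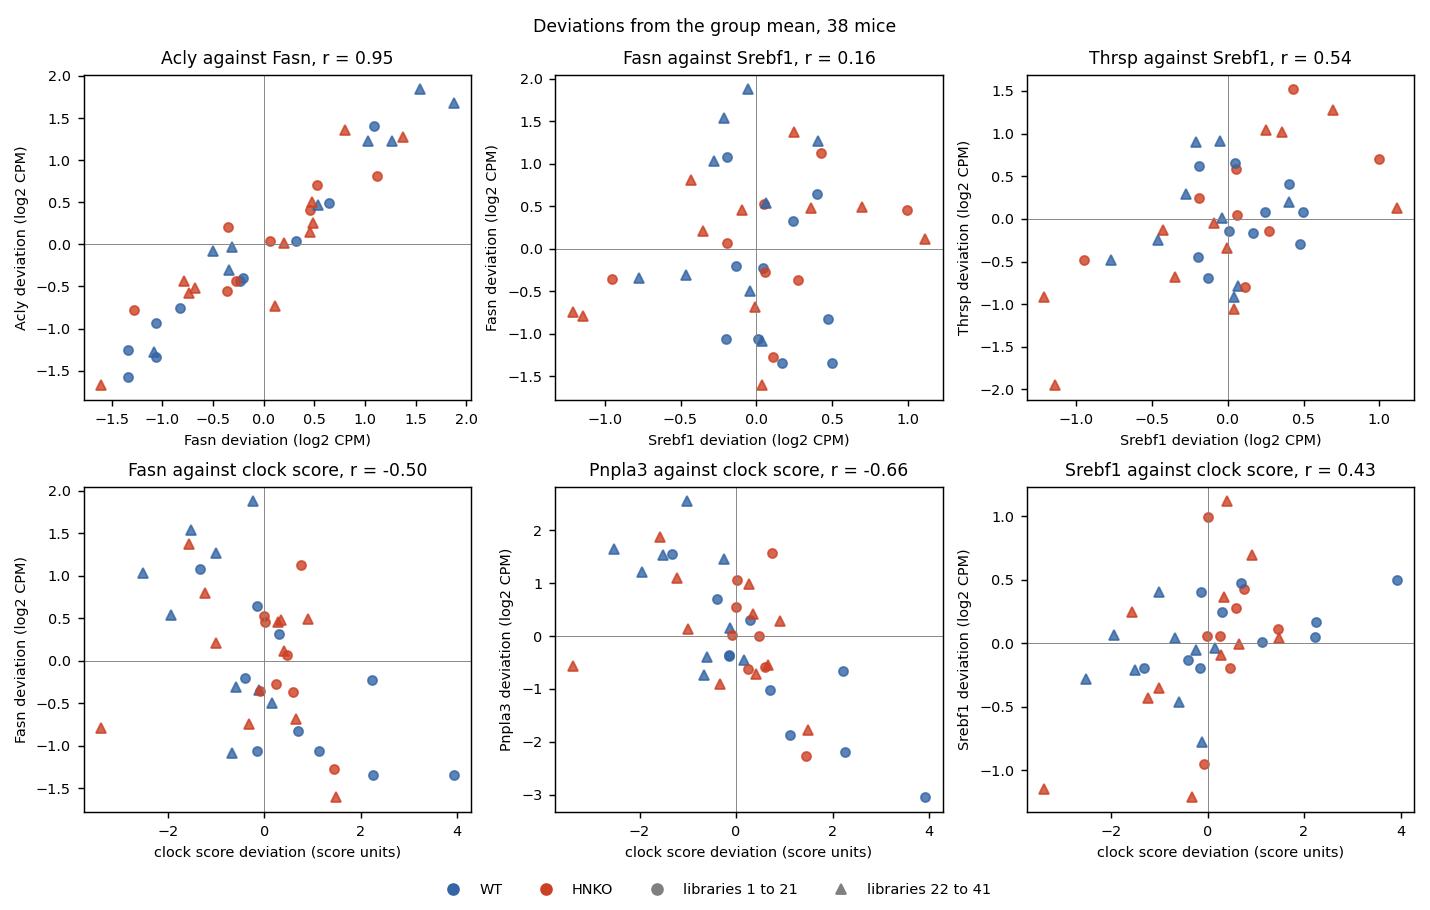
Deviations from the group mean for 6 pairs of measures (axes in log2 CPM, or score units for the clock score), 1 point per liver, with WT in blue, HNKO in red, circles for libraries 1 to 21, and triangles for libraries 22 to 41. *Acly* follows *Fasn* closely, *Srebf1* does not follow *Fasn*, and the clock score runs against *Fasn* (r = -0.50) and *Pnpla3* (r = -0.66) but with *Srebf1* (r = 0.43).

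The genes most like the mean of the 10 lipogenic genes over the same deviations were *Pklr* (r = 0.93), the liver pyruvate kinase, *Acss2* (0.92), which makes acetyl-CoA from acetate in the cytosol, and *Acsl5* (0.91), an acyl-CoA synthetase. *Gm5182* (0.90) followed, but it is a pseudogene that shares 4996 stretches of 51 bases with *Acaca*, so it cannot be told apart from reads of *Acaca*. *Gm11437* (0.87) lies inside *Acaca* on the other strand and shares no such stretch. Whether its counts hold reads of *Acaca* depends on the use of the strand. The use of the strand in counting is not given in the sources used here. *Slc25a44*, *Tmem135*, *BC049987*, *Camk1d*, and *Khk*, the fructokinase, made up the rest of the first 10, down to r = 0.86. Of 12589 other genes, 43 had r above 0.8, and the median was -0.0089.

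Around the pathway, 5 lists of related genes were compared over the mean of the 4 days, where 19.2% of all genes were called higher and 17.3% lower. Of 14 lipogenic regulators 0 were higher and 6 lower, and 3 were called when library 23, 29, 35, or 37 was left out or no filter was applied. *Scap*, which escorts the SREBPs to the Golgi, was at -0.50 (adjusted p = 0.000114), and *Mlxipl*, which encodes ChREBP, was at -0.38 (adjusted p = 0.00249, edgeR's quasi-likelihood test for both). Of 13 genes of substrate and NADPH supply 1 was higher and 2 were lower, with 5 called without library 10, 16, or 33. The one higher was the citrate importer of the plasma membrane, *Slc13a5*, at 2.34 (SE 0.264), 5.07-fold.

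Of 17 other genes of acyl chain metabolism 1 was higher and 9 were lower, with 6 called without library 37. *Scd2*, a desaturase paralogue, rose by 0.84 while *Scd1* was at -0.40 and not called, and 4.44% of the 51-base stretches of *Scd1* occur in other transcripts, mainly those of *Scd3*, *Scd2*, and *Scd4*. *Acsl1*, the main acyl-CoA synthetase of liver, was at -0.76, and *Mlycd*, which degrades malonyl-CoA, at -0.28. Of 12 genes of triglyceride assembly 0 were higher and 8 lower, among them *Dgat2* (-0.54), *Mogat1* (-1.20), and *Mttp* (-0.49), which loads lipid onto lipoproteins. Without library 37 (HNKO day 21), 5 of the 12 were called. Of 12 genes of the fasting response 0 were higher and 5 lower, with *Cyp4a14* at -2.04 and *Cyp4a10* at -1.68, both microsomal fatty acid hydroxylases and known PPARα targets. The 11 genes named here with a fold change, other than the lipogenic genes, were called over the mean of the 4 days in all 38 fits that left out 1 library. They were named because they were called at 2 or more days or, for *Scap* and *Mlxipl*, had the smallest p over this mean. Their staying called was therefore largely given by that choice.

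**Figure D5:**
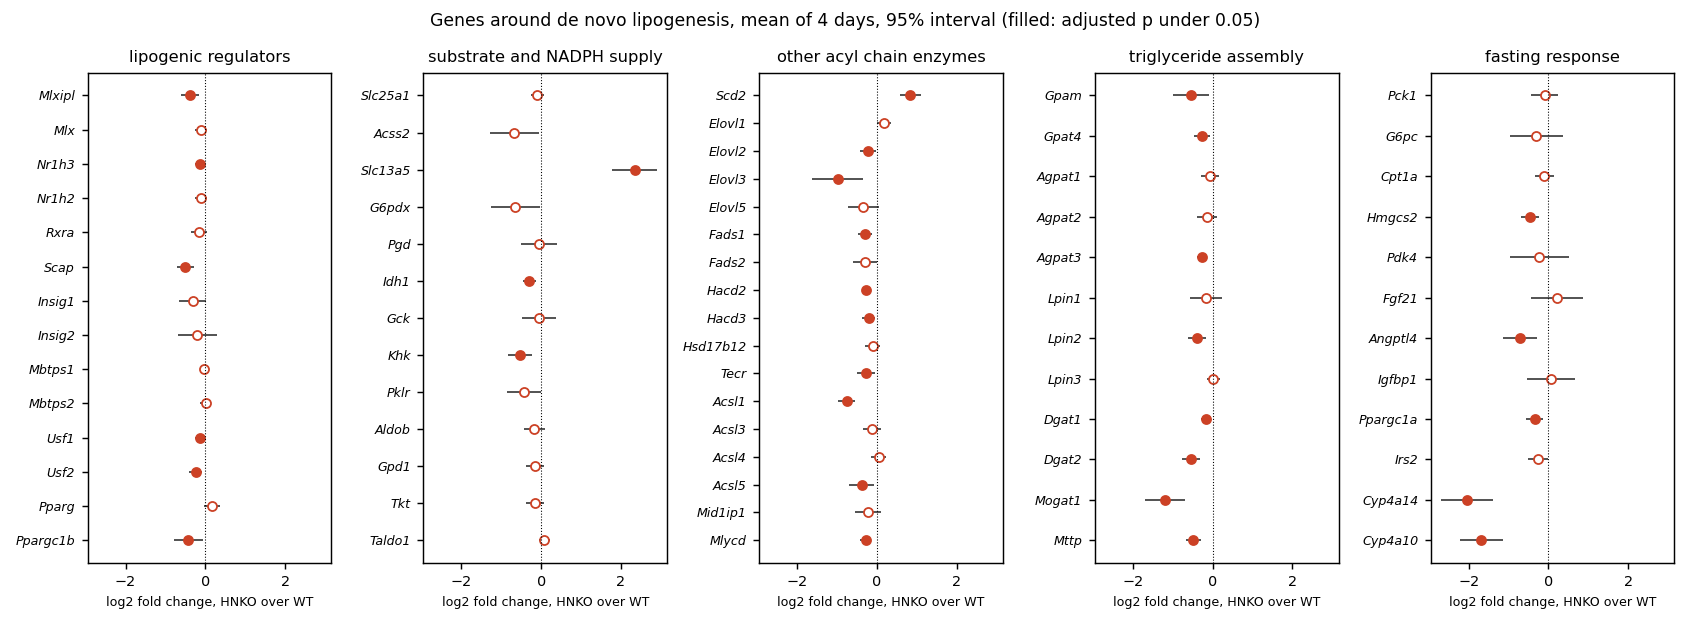
Log2 fold change of HNKO over WT over the mean of the 4 days (horizontal axes) for the genes of 5 lists (vertical axes), with lines for the 95% interval and filled points for an adjusted p under 0.05. *Slc13a5* lies far to the right at 2.34, *Cyp4a14* far to the left at -2.04, and 8 of the 12 points of triglyceride assembly are filled on the left.

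The 2 clock lists behind the score had 0 higher and 1 lower of 8 genes that peak with *Dbp* (*Hlf*, -0.51) and 0 higher and 1 lower of 5 genes that peak with *Arntl* (*Cry1*, -0.50). *Ciart*, in the first of these lists, was at -0.86 and was not called (adjusted p = 0.252, edgeR's quasi-likelihood test). When 1 library was left out, *Ciart* ranged from -1.06 to 0.05. The median log2 fold changes were -0.15 for the regulators, -0.16 for substrate and NADPH supply, -0.27 for the other acyl chain genes, -0.27 for triglyceride assembly, and -0.28 for the fasting response, beside -0.51 for the 10 lipogenic genes, -0.24 for the 10 hepatocyte markers, and -0.0064 for all tested genes. The medians of the 5 lists thus lay near that of the hepatocyte markers, and whether they differ from it was not tested.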

How the data were processed

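The authors sequenced rRNA-depleted total RNA with 51-bp paired-end reads, aligned them with STAR 2.7.2b to GRCm38, and counted them on GENCODE release M22 with featureCounts 1.6.4, per the labels and the paper. They deposited raw counts per gene without normalization. Each of the 40 count columns was mapped to a sample. Here genes were kept by edgeR's filter (minimum count 10, minimum total 15, minimum proportion 0.7), scaled with TMM factors, and modelled with a mean for each of the 8 groups (edgeR 4.0.16, quasi-likelihood, legacy computation, R 4.3.3), with Benjamini-Hochberg adjustment over 20297 genes. Log2 CPM used a prior count of 2. Positions and exon lengths came from GENCODE M21 on the same build. Total counts of 16151037 to 64181492 per library and 3 to 6 livers per group set the precision. Alternatives were RLE size factors, DESeq2 1.42.0, no filter, all 40 libraries, only the groups compared, the edgeR 4 computation, the label series or the clock score as covariate, and leaving out each library. The genes, lists, and naming rule (for other genes, those of a list called at 2 or more days, otherwise those with the smallest p over the mean of the 4 days) were chosen with earlier results of these data known. The edgeR and DESeq2 steps were tested on simulated data.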

Additional observations from a re-analysis of the deposited data

Results flagged for a closer look

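Among 84 groups of 4 to 6 livers (12 measures), a highest or lowest value far from its neighbours was met in 3, and chance alone marks about 1 group in 20. For 0 of the 10 lipogenic genes did a group hold such a value. In WT at day 12, *Nampt* was at 7.24 log2 CPM in library 16, with the nearest liver at 6.12. The clock score of the same library was 3.01, with the nearest at -1.32. In HNKO at day 6, the clock score of library 29 was -3.13, with the nearest at 0.526. Library 16 had *Fasn* at 10.71 and *Pnpla3* at 1.60 log2 CPM, the lowest of its group for both, and library 29 had *Srebf1* at 7.24 and *Thrsp* at 5.63, the lowest of all 38 livers for both.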

How the results depend on the processing

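No paired analysis was possible because the library numbers of the labels are not shared between groups. Over the mean of the 4 days, *Me1* was called in 45 of 45 alternatives, *Acacb* in 28, *Elovl6* in 13, and *Thrsp* in 3 (without library 6, 31, or 38). The number of the 10 genes called there was 3 with all 40 libraries and with the series as covariate, and 1 to 4 when 1 library was left out. At day 12, 0 to 1 genes were called when 1 was left out, namely *Me1* (-1.78, adjusted p = 0.0375 by edgeR) without library 36 of HNKO. For the WT day effect the range was 0 to 1, and from day 3 to 21 in WT 3 genes were called with the clock score, where the calls over all genes rose to 2738 as well. Exact permutation tests under 0.05 numbered 0 to 2 of 40, with 2 without library 16 and 1 without library 36. Directions that changed concern uncalled genes, such as *Elovl6* at day 3 in 7 of 18 alternatives. The causes of the changes below were not tested.

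All genes called at day 3 were 331 with all 40 libraries, 420 with only the groups compared, and 1428 with DESeq2 (945 in the report's fit), at day 6 1321 and 1325 with the first of these choices (2596), at day 12 624 and 867 with them and 3900 with the clock score (1588), and at day 21 1350 with all 40 libraries, 1027 with the clock score, and 994 with DESeq2 (634). Interaction calls were 1 with the clock score and 16 with DESeq2 (0). WT day effects were 581 with all 40 libraries, 2224 with the series, 3303 with the clock score, and 1886 with DESeq2 (1185). WT day 6 against 3 gave 5 with DESeq2 (0). WT day 12 against 6 gave 270, 213, and 720 with all 40, only the groups, and DESeq2 (454). WT day 21 against 12 gave 2 with RLE, 10 with edgeR 4, 241 with the series, 1562 with the clock score, 0 with only the groups, and 92 with DESeq2 (1). WT day 21 against 3 gave 597 without a filter, 480 with all 40, 2002 with the series, and 2738 with the clock score (1005). HNKO day effects were 3439 with the clock score and 781 with only HNKO groups (1604). Regulators called were 3 without a filter, and clock output genes 2 with the clock score. Correlations passing with *Srebf1* and with the clock score were 0 in each label series.

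Leaving out 1 library gave 322 to 1668 genes at day 3, 1126 to 3027 at day 6, 852 to 1750 at day 12, 13 to 718 at day 21 (13 without HNKO library 37), 5954 to 7581 over the 4 days, 0 to 3 for the interaction, 811 to 1385 for WT days, 271 to 525, 1 to 70, and 546 to 974 for WT day 12 against 6, 21 against 12, and 21 against 3, and 1183 to 1603 for HNKO days. The lists ranged from 3 to 6 for regulators, 3 to 5 for substrate supply, 6 to 11 for acyl chains, 5 to 8 for triglyceride assembly, and 5 to 6 for the fasting response.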

Other observations

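In the 2 HNKO libraries of day 21 that failed quality control, numbers 17 and 18, *Fasn* had 14171 and 30560 counts (10.09 and 10.72 log2 CPM when all 40 libraries are scaled together) and *Me1* had 807 and 1348 counts (5.96 and 6.22 log2 CPM). *Me1* lay below the lowest WT liver of that day, 6.60 on this scale, in both, and *Fasn* lay within the WT range of 10.04 to 12.99.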
